A study of Mus musculus with 6 samples.

Results

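The genes described encode nuclear subunits of the mitochondrial respiratory chain and of ATP synthase, measured in whole Brg1 conditional knockout and control mouse embryos. They were taken by name from a 1-colour Agilent array: every probe outside the control spots whose gene name begins with Nduf followed by a, b, c, s or v, with Uqcr, with Cox4 to Cox8 or with Atp5, together with Sdha, Sdhb, Sdhc and Sdhd. The rule found 113 probes for 82 of the 19505 named genes on the array. By name, 36 of the genes belong to complex I, 4 to complex II, 7 to complex III, 17 to complex IV (cytochrome c oxidase) and 15 to complex V (ATP synthase). The remaining 3 carry such a name without being subunits. Subunits encoded by the mitochondrial genome were not analysed here. The rule reads the array's own gene names and misses subunits listed there under other names, among them Ndufv3, Uqcr10, Atp5md and Atp5mpl.

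The respiratory chain passes electrons from NADH (complex I) and succinate (complex II) through complex III to cytochrome c oxidase, which reduces oxygen, and complex V uses the resulting proton gradient to make ATP. Most nuclear subunits are expressed in nearly every cell type. Several small subunits of cytochrome c oxidase also exist as tissue isoforms: Cox6a2, Cox7a1 and Cox8b are the forms of heart and skeletal muscle, and their broadly expressed partners are Cox6a1, Cox7a2 and Cox8a.

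The study asked how gene expression differs in conditional knockouts of Brg1, the ATPase of SWI/SNF chromatin remodelling complexes, whose gene symbol is Smarca4. RNA came from whole embryos at embryonic day 8.5 (E8.5), and per the labels tamoxifen was given by intraperitoneal injection to the dam, for both genotypes. The 3 Brg1d/d samples are conditional knockouts (CKO), and the 3 Brg1fl/fl samples carry the floxed, wild-type gene and are the controls. The labels call the samples of a genotype biological replicates, and p-values set differences against the spread between these samples. The CKO samples also differ from each other in slide and scan day, which the controls do not. Their spread can therefore include more than biological variation. The sources used here do not give the Cre line or say whether embryos were pooled. In whole embryos, fewer cells of a type and less RNA per cell cannot be told apart.

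Levels are given as log2 of the processed signal minus the 75th percentile of the same array, so that 0 is a bright probe and a difference of 1 is a 2-fold change. Each gene is represented by its brightest tested probe. Smarca4 stood at 1.54, 2.70 and 2.05 on CKO arrays 1 to 3 and at 5.33, 4.49 and 4.53 on control arrays 1 to 3, a fall of 6.44-fold (limma, adjusted p = 0.0119). Its probe was still well above background on all 3 CKO arrays, so Smarca4 signal remained in CKO. Of the spots outside the controls, 68.5% to 73.5% per array were well above background. CKO 2 and the controls were scanned on 1 day, CKO 1 and CKO 3 each on a day of its own, and the brightest spike-in control read 12934 and 6905 units on CKO 1 and CKO 3 against 208550 to 241121 units on the other 4 arrays. For this reason the difference of CKO 2 from the controls, the same-day difference, is given beside the main results. No slide held both genotypes, on that day either: all controls lay on 1 slide, and the CKO arrays on 3 others. Slide and genotype therefore cannot be told apart within a slide.

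Most respiratory chain genes differed little between genotypes, and the muscle isoform Cox6a2 was lower in CKO. Of the 82 genes, 79 passed the filter on dim probes, each well above background on all 6 arrays. Among them 0 were higher and 1 was lower in CKO at an adjusted p under 0.05 (limma, adjusted over all probes tested), where 10.4% of the 15027 genes tested passed, 5.26% higher and 5.12% lower. At an unadjusted p under 0.05 (limma) there were 8 of the 79 respiratory chain genes, 3 of them higher. Over all genes, 4872 of the 15027 tested lay under it. The groups did not overlap for 23 of the 79 genes, 8 with CKO higher and 15 with CKO lower, and 41.8% of all genes showed no overlap, 23.1% with CKO higher and 18.7% with CKO lower.

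The median difference (CKO minus control) was 0.00 over the 79 genes, and 0.08 over all genes tested. It was -0.08 on the same day, against 0.01 for all genes. For 75 of the 79 genes the 95% interval of the difference lay within a 2-fold change either way, which was the case for 54.1% of all genes. The exceptions were Cox6a2, Cox6b2, Cox6c and Cox7c, all of complex IV. The median standard error was 0.17 for the respiratory chain genes and 0.21 over all genes. An absent call does not show that a level was the same. Changes smaller than 2-fold lie inside these intervals, and for Cox6b2, Cox6c and Cox7c the interval reaches beyond 2-fold. Over all genes tested, changes of 2-fold and more could escape the test. The plot of all differences by complex shows 1 long bar far to the left and the other genes gathered around 0.

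**Figure D1:**
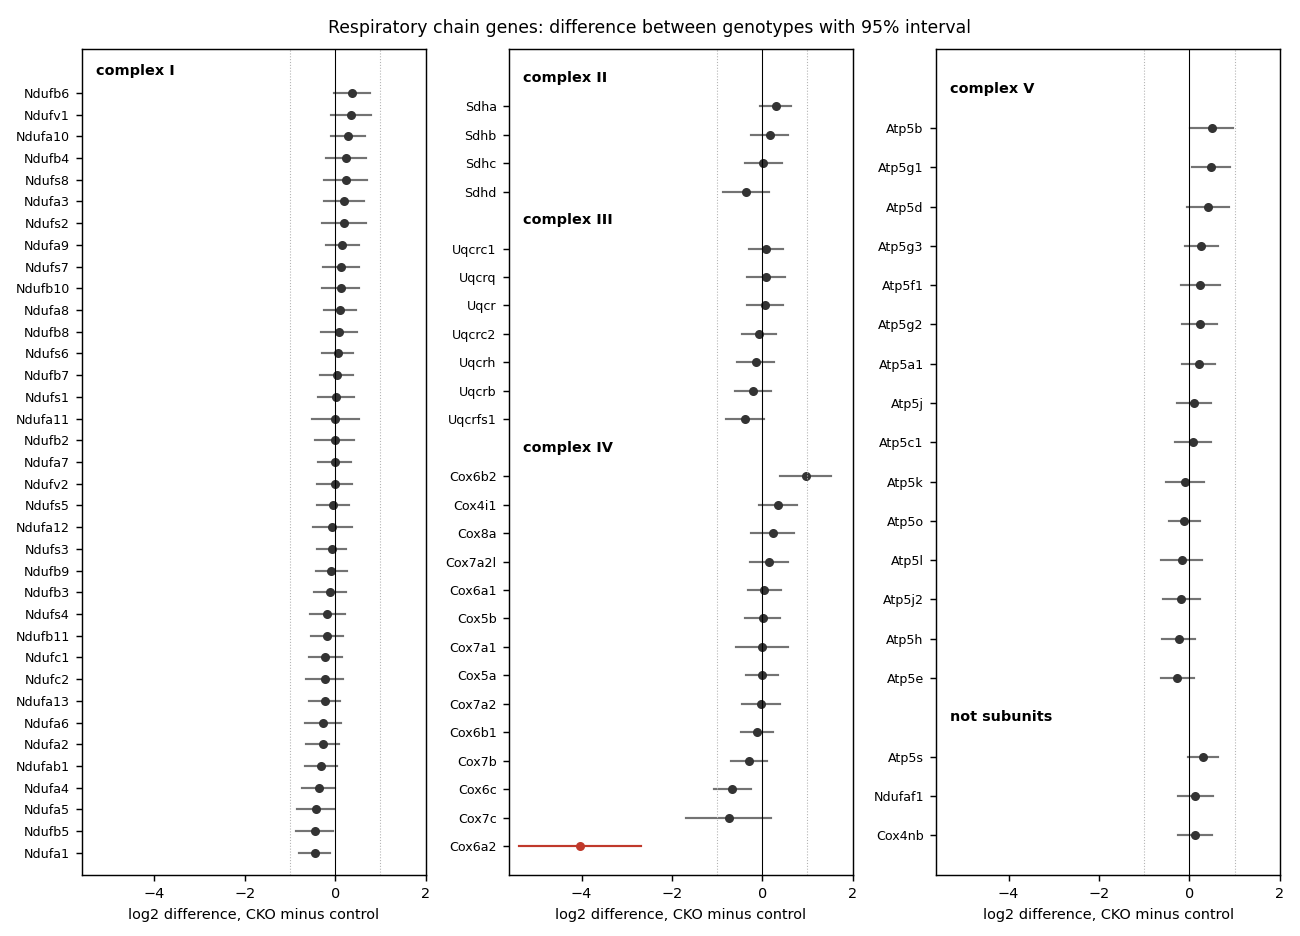
Difference between genotypes (CKO minus control, log2) for the 79 tested genes, grouped by complex. Points are limma estimates from 3 arrays per genotype and bars are 95% intervals. Dotted lines mark a 2-fold change. Cox6a2, in red, passed the test at -4.04, and the other genes lie between -0.74 and 0.96.

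Of the 3 muscle isoforms of cytochrome c oxidase, Cox6a2 fell, Cox7a1 did not pass the test and Cox8b was too dim to test. Cox6a2, the heart and skeletal muscle form of subunit VIa, read -6.13, -6.71 and -4.45 on CKO arrays 1 to 3 and -1.41, -1.75 and -2.02 on control arrays 1 to 3 (probe at chr7:124302204-124302263 of mm7, the build of the array's annotation). Every CKO array lay below every control array. The fall was 4.04 ± 0.56 (SE) on the log2 scale, or 16.4-fold (limma, adjusted p = 0.0129), and 33 of the other genes tested fell further.

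In units of processed signal, Cox6a2 read 22.5, 8.94 and 70.2 in CKO and 362, 292 and 232 in the controls. The dimmest probes still well above background read 16.1, 8.39 and 17.0 units on the same CKO arrays. Cox6a2 in CKO was therefore just above background on CKO 1 and CKO 2 and clearly above it on CKO 3, and the size of its fold rests on dim signals. On the same day the difference was -4.99. The call was lost with scan day as a block (-4.99, adjusted p = 0.0871) and with the split of the arrays by spike-in signal as a block (-4.99, adjusted p = 0.0609), in both of which the estimate rests on CKO 2 alone against the controls. It was also lost without CKO 1 (-3.85, adjusted p = 0.0708) and without control 2 (-4.05, adjusted p = 0.0624, all from limma). Background correction by normexp, which pulls dim signals together, gave -2.35 (adjusted p = 0.00149).

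Cox7a1, the muscle form of subunit VIIa, read 1.41, 1.35 and 1.29 in CKO and 0.90, 1.40 and 1.77 in the controls, so that the CKO arrays lay inside the range of the controls. Its difference was -0.01 ± 0.24 (SE), with a 95% interval from -0.58 to 0.57 (limma, adjusted p = 0.986). Cox8b, the muscle form of subunit VIII, was not well above background on any of the 6 arrays and was not tested. Its values were -6.99, -8.54 and -7.16 in CKO and -8.59, -7.29 and -7.16 in the controls, and they carry no order.

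None of the 3 broadly expressed partners passed the test. Cox6a1 read 7.36, 7.13 and 7.17 in CKO and 7.06, 7.17 and 7.28 in the controls, a difference of 0.05 with an interval from -0.32 to 0.41. Cox7a2 read 5.39, 4.95 and 5.09 against 5.04, 5.21 and 5.24, a difference of -0.02 with an interval from -0.44 to 0.40. Its other, dimmer probe differed by -0.22 and the mean of both by -0.12. Cox8a read 6.11, 5.53 and 5.84 against 5.45, 5.62 and 5.72, a difference of 0.23 with an interval from -0.25 to 0.70. In all 3 partners the CKO and control arrays overlapped.

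Each muscle isoform was also set against its partner on the same array. Relative to Cox6a1, Cox6a2 was lower in CKO by -4.08 on the log2 scale (exact permutation test over the arrays, two-sided, p = 0.10, adjusted over the 3 pairs 0.30). With 3 arrays against 3 there are 20 splits, and 0.10 is the smallest p they allow. The change of Cox7a1 relative to Cox7a2 was 0.01 (exact p = 0.90, adjusted 0.90). The third pair, Cox8b and Cox8a, is counted in the adjustment, but no value is given for it because Cox8b was not well above background. The plot of the isoforms by array shows Cox6a2 as the pair member whose groups lie far apart.

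**Figure D2:**
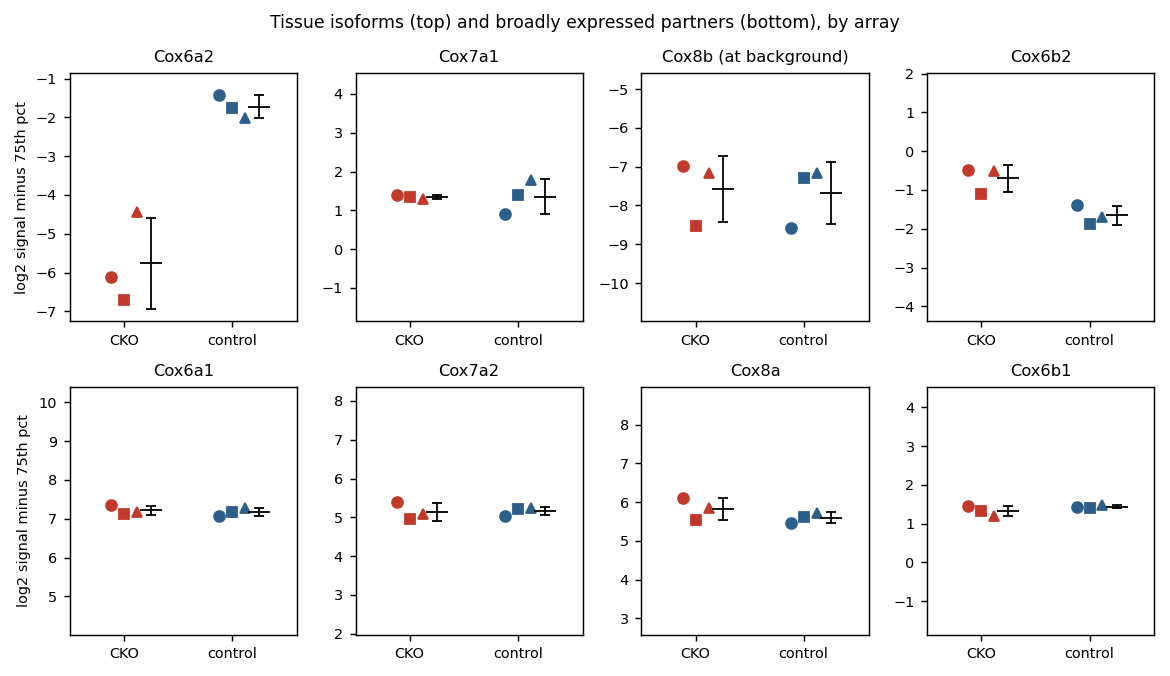
Level of 4 tissue isoforms of cytochrome c oxidase (top) and of their broadly expressed partners (bottom), on the log2 scale relative to the 75th percentile. Circles, squares and triangles are arrays 1, 2 and 3 of a genotype, red for CKO and blue for control, and bars give the mean ± SD. The axes start at different levels, and only the changes within a panel can be compared: Cox6a2 runs from -6.71 to -1.41, and Cox7a1 stays between 0.90 and 1.77.

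Promoters of the muscle forms Cox7a1 and Cox8b and of the broadly expressed forms Cox6a1, Cox7a2 and Cox8a are printed to show, beside the levels above, which known motifs each of them holds. The windows are those of RefSeq (GRCm38.p6), from 250 bases before to 50 after the start of the gene, 5′ to 3′ on the gene's strand. Capitals mark matches on either strand to 5 motifs: the NRF1 motif (GCGCANGCGC), the ETS motif (CCGGAAG), the YY1 motif (ATGGCGGC), the E-box motif (CAGCTG) and the TATA-box motif (TATAAA). None of the matches shown overlaps another. NRF1, the ETS factor GABP and YY1 are known regulators of respiratory chain genes, and E-boxes are bound by muscle bHLH factors among others. The windows are Cox7a1 at chr7:30183921-30184220 (+), Cox8b at chr7:140900397-140900696 (-), Cox6a1 at chr5:115348909-115349208 (-), Cox7a2 at chr9:79759804-79760103 (-) and Cox8a at chr19:7217567-7217866 (-).
Cox7a1: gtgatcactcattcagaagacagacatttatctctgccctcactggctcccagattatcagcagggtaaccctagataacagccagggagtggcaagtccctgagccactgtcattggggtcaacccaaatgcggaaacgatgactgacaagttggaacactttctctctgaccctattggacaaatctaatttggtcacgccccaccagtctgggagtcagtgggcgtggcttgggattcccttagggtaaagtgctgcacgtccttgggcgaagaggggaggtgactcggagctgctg
Cox8b: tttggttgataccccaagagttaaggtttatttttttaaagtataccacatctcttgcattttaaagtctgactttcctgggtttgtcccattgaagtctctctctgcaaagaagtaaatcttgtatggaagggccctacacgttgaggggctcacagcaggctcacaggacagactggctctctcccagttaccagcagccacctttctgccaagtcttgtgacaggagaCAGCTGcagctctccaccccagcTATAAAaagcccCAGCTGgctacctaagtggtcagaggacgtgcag
Cox6a1: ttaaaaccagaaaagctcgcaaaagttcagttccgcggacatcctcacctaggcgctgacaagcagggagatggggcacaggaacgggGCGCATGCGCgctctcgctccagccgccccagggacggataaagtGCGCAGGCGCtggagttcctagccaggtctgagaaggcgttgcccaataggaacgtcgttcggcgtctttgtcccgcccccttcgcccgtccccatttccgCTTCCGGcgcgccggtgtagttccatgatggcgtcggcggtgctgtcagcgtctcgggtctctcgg
Cox7a2: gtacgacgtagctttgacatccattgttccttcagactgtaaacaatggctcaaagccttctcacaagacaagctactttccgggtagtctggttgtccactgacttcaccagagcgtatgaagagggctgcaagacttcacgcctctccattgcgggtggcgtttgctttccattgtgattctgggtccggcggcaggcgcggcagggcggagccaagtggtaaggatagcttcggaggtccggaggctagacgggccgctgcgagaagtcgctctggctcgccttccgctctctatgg
Cox8a: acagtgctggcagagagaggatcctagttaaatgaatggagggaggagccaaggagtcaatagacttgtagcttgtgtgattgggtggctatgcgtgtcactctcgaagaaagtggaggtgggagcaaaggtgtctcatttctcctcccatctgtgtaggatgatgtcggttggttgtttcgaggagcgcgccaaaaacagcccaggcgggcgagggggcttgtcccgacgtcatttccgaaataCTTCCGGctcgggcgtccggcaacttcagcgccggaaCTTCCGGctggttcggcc
Cox6a1 held an NRF1 motif at 2 places and 1 ETS motif, and Cox8a held 2 ETS motifs. Cox8b held 2 E-boxes around a TATA motif. Neither Cox7a1, a muscle form, nor Cox7a2, its broadly expressed partner, held any of the 5 motifs. GC content was 53.0% in Cox7a1, 48.3% in Cox8b, 63.0% in Cox6a1, 56.7% in Cox7a2 and 56.0% in Cox8a.

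RefSeq windows were found for 67 of the 82 genes, 72 windows in all, and Cox6a2 has none among them. The NRF1 motif was present in 25% of these windows and in 4.60% of all 32851 windows of the same length. The ETS motif was present in 23.6% against 8.86%, and the YY1 motif in 9.72% against 2.24%. The E-box was present in 8.33% against 16.3%, and the TATA motif in 9.72% against 13.6%. Median GC content was 57.5% in the windows of these genes and 52.7% in all windows. A match is a stretch of letters and does not show that a factor binds there.

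Markers of heart muscle fell together with Cox6a2. Of 20 cardiomyocyte genes on the array, such as the myosin heavy chains Myh6 and Myh7 and the natriuretic peptide Nppa, 18 were tested and 17 were lower in CKO, with a median difference of -4.34 (-4.62 on the same day). The share called lower among all genes tested was 5.12%. The median level of the list was -3.02, -3.25 and -2.97 in CKO and 1.95, 1.12 and 1.10 in the controls. The summed signal of the list ran from 10789 to 26927 units in CKO and from 167838 to 256345 units in the controls. The defining markers were not at background in CKO, since 18 or 19 of the 20 genes were well above background on each CKO array and 18 on each control array. The part of these cells in the fall of Cox6a2 was not tested.

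**Figure D3:**
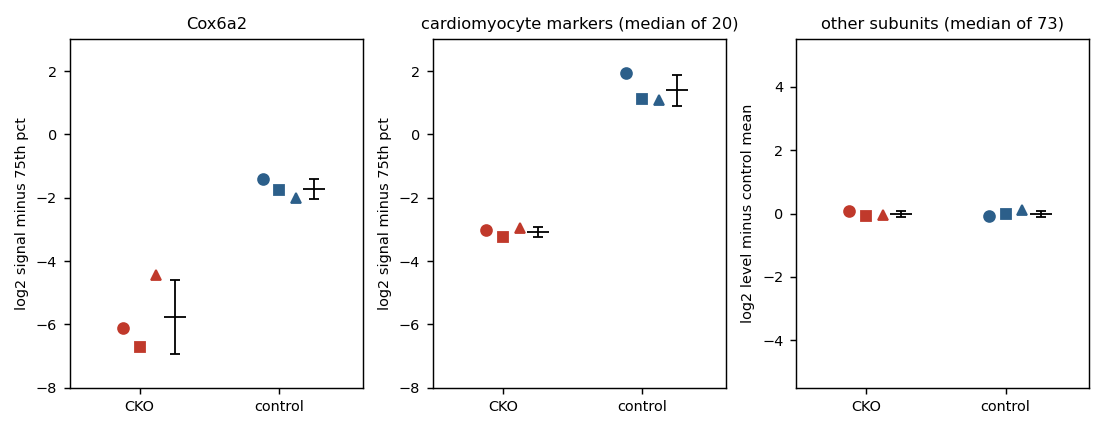
Left, level of Cox6a2; middle, median level of the 20 cardiomyocyte markers (both on the log2 scale relative to the 75th percentile); right, median over 73 respiratory chain subunits that are not tissue-restricted, each relative to its control mean. Symbols are arrays 1 to 3 (circle, square, triangle) and bars the mean ± SD. In the first 2 panels the genotypes lie apart by about 4 on the log2 scale, and in the third all 6 arrays lie between -0.08 and 0.11.

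Lists for other cell types also differed between samples. Calls in these lists stand beside 5.26% of all genes tested called higher and 5.12% called lower. Summed signals are not scaled between arrays, and the 75th percentile was 1574 and 1530 units on CKO 1 and CKO 3 against 936 to 981 on the other arrays, so scaled medians are given beside them. Trophoblast markers were higher in CKO for 5 of 8 genes tested (Ascl2, Elf5, Eomes, Hand1 and Tfap2c), with summed signals of 36193 to 63278 units in CKO and 15883 to 22754 in the controls. The scaled median level of the list was 0.38 to 1.0 in CKO and -2.92 to -1.45 in the controls. Of 11 primitive erythroid genes tested, Hemgn and Ermap were lower, on probes well above background on 2 and 1 of the CKO arrays and on all control arrays, so that they entered the test through the controls. Summed signals ran from 63401 to 128726 units in CKO and from 71355 to 277616 in the controls, and the scaled medians were -0.05 to 0.44 in CKO and -0.77 (control 1) to 2.32 in the controls. Visceral endoderm and yolk sac markers gave 0 calls among 12 (limma, 0 at an unadjusted p under 0.05), and control 1 stood apart at 111348 units where the other arrays read 415504 to 787583 (scaled medians 1.92 and 4.60 to 5.07). Leukocyte markers summed to 169 to 533 units in CKO and 185 to 270 in the controls, with scaled medians of -6.43 to -5.24 and -6.49 to -5.20. Cd79b was lower, also entering through the controls, with 2 of 3 CKO arrays well above background. The part of these cells in the values of the respiratory chain genes was not tested.

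Of the remaining tissue-restricted isoforms, Cox6b2 was well above background on all arrays and Cox4i2 and Cox8c were not. Cox6b2, the testis form of subunit VIb, read -0.50, -1.10 and -0.51 in CKO and -1.40, -1.89 and -1.69 in the controls. Every CKO array lay above every control array, but the difference of 0.96 ± 0.23 (SE) did not pass (limma, adjusted p = 0.0538, interval from 0.40 to 1.52), and it was 0.56 on the same day. It passed in 6 of 18 alternatives, among them quantile scaling (0.95), median scaling (0.85) and normexp (0.83), with adjusted p from 0.0247 to 0.588 over the 18 (limma). Its broadly expressed partner Cox6b1 read 1.46, 1.33 and 1.197 against 1.44, 1.41 and 1.48, a difference of -0.11 (interval from -0.46 to 0.24).

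Cox4i2, the isoform of subunit IV known from lung and from cells short of oxygen, was well above background on 2 arrays of each genotype and was not tested. It read -6.52, -7.84 and -5.55 in CKO and -6.50, -6.48 and -6.83 in the controls, and the groups overlapped. Its partner Cox4i1 read 6.25, 5.95 and 6.29 against 5.81, 5.64 and 6.005, a difference of 0.35 (interval from -0.08 to 0.77). Cox8c, a testis form of subunit VIII, was not well above background on any array, with -6.96, -8.25 and -7.60 against -8.86, -9.23 and -9.08.

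Among the other 6 genes of complex IV that were tested, Cox6c and Cox7c had the lowest differences, and both are named here after their values were seen. Cox6c, a small structural subunit, read 5.33, 5.53 and 5.11 in CKO and 5.91, 6.05 and 6.01 in the controls. Its groups did not overlap, and the difference of -0.66 ± 0.17 (SE) did not pass in the main test (limma, adjusted p = 0.0585). It passed in 4 of 18 alternatives, among them quantile scaling (-0.72) and normexp (-0.67), with adjusted p from 0.0209 to 0.556 over the 18 (limma). Cox7c had the lowest difference among subunits without tissue restriction, -0.74 ± 0.39 (SE), and read 2.33, 1.75 and 2.67 against 3.33, 2.23 and 3.43. Its arrays overlapped, and array 2 was the lowest of both genotypes.

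Cox7b, whose gene is X-linked, read 4.49, 4.37 and 4.20 in CKO and 4.48, 4.68 and 4.79 in the controls, a difference of -0.30 (interval from -0.69 to 0.10). Cox7a2l, a factor that joins complexes III and IV into supercomplexes, read 3.22, 2.84 and 3.099 against 2.75, 2.99 and 2.98, a difference of 0.15 (interval from -0.26 to 0.56). Both genes overlapped between genotypes. The structural subunits Cox5a and Cox5b differed by -0.01 (interval from -0.36 to 0.34) and 0.01 (interval from -0.38 to 0.40). Over the 14 tested genes of complex IV the median difference was -0.01, and -0.09 on the same day.

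Complex I, the NADH dehydrogenase and the largest group here, gave 0 calls among 36 genes (limma, 3 at an unadjusted p under 0.05), and the interval of each of the 36 lay within a 2-fold change. Of all 15027 genes tested, 10.4% passed, 4872 lay under the unadjusted 0.05 and 54.1% had such an interval. The median difference was -0.01, and -0.10 on the same day. Its 7 core subunits, which carry the flavin and the iron-sulphur clusters, had a median of 0.13 and ran from -0.08 (Ndufs3) to 0.35 (Ndufv1). The 29 accessory subunits had a median of -0.06, and 19 of them lay below 0. On the same day the medians were -0.08 for the core and -0.14 for the accessory subunits.

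The lowest gene of complex I was Ndufa1, an X-linked accessory subunit needed for assembly of the membrane arm. Its dimmer probe differed by -0.27 and the mean of both probes by -0.36. The brighter probe, used here, read 4.63, 4.66 and 4.47 in CKO and 5.09, 4.99 and 5.03 in the controls. The groups did not overlap, and the difference of -0.45 ± 0.14 (SE) did not pass (limma, adjusted p = 0.0938). It passed in 1 of 18 alternatives, the variance model with an intensity trend and robust estimation, and adjusted p over the 18 ran from 0.0345 to 0.611 (limma).

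Ndufb6, an accessory subunit of the membrane arm, was the highest, with 4.39, 4.07 and 4.32 against 4.04, 3.83 and 3.79, a difference of 0.38 ± 0.17 (SE) without overlap (adjusted p = 0.174). Ndufb5 and Ndufa5 followed Ndufa1 with differences of -0.45 and -0.43. In 10 of the 36 genes every CKO array lay below every control array, and in 2 genes, Ndufb6 and Ndufa10, every CKO array lay above, where over all genes 18.7% lay below and 23.1% above. Ndufa4, a subunit first assigned to complex I and later placed in cytochrome c oxidase, read 5.09, 4.98 and 4.78 in CKO and 5.23, 5.32 and 5.39 in the controls, a difference of -0.37 without overlap (adjusted p = 0.163).

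Complex II, succinate dehydrogenase, is also an enzyme of the citric acid cycle, and 0 of its 4 genes passed (limma, 0 at an unadjusted p under 0.05). The share passing over all genes tested was 10.4%, and 0 of 4 is near it. The flavoprotein Sdha measured 2.37 ± 0.06 (SD, n = 3) in CKO and 2.08 ± 0.06 in the controls. On single arrays Sdha read 2.42, 2.31 and 2.38 against 2.03, 2.05 and 2.15, without overlap, and its difference of 0.29 ± 0.14 (SE) had an adjusted p of 0.199 (limma). Its other probe differed by 0.00, and the mean of both by 0.15. The iron-sulphur subunit Sdhb measured 3.299 ± 0.10 against 3.13 ± 0.21. The membrane anchors Sdhc and Sdhd measured 2.45 ± 0.23 against 2.42 ± 0.09, and 4.82 ± 0.24 against 5.18 ± 0.27. Sdhd read 4.73, 5.09 and 4.64 against 4.89, 5.23 and 5.41, with overlap, and its difference was -0.36 (interval from -0.86 to 0.15).

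Complex III, the cytochrome bc1 complex, gave 0 calls among 7 genes (limma, 0 at an unadjusted p under 0.05) and a median difference of -0.07 (-0.11 on the same day). A count of 0 among 7 is near the 10.4% of all genes tested that passed. The Rieske iron-sulphur protein Uqcrfs1 was the lowest, at 4.28, 4.62 and 4.25 in CKO and 4.63, 4.92 and 4.74 in the controls. The groups did not overlap, by the narrow margin of CKO 2 at 4.623 and control 1 at 4.627, and the difference of -0.38 ± 0.18 (SE) did not pass (limma, adjusted p = 0.192). The core protein Uqcrc1 was the highest, with 5.17, 4.92 and 5.12 against 4.89, 4.93 and 5.12, a difference of 0.09 (interval from -0.29 to 0.47). Its other, dimmer probe differed by 0.54 and the mean of both by 0.32, so the size depends on the probe.

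The other 5 genes of complex III lay between these. The second core protein Uqcrc2 measured 4.97 ± 0.08 (SD, n = 3) in CKO and 5.04 ± 0.15 in the controls. Uqcrb measured 4.14 ± 0.16 against 4.36 ± 0.14, and the hinge protein Uqcrh 6.71 ± 0.18 against 6.86 ± 0.13. Uqcrq measured 5.95 ± 0.10 against 5.87 ± 0.23, and Uqcr, whose current symbol is Uqcr11, 4.97 ± 0.07 against 4.91 ± 0.19. The difference of largest size was that of Uqcrb, at -0.215, and all 5 genes overlapped between genotypes.

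Complex V gave 0 calls among 15 genes (limma, 2 at an unadjusted p under 0.05) and a median difference of 0.10, which was 0.01 on the same day. With 15 genes, 0 calls is not far from the 10.4% of all genes tested that passed. The 5 subunits of the catalytic F1 part had a median of 0.21 and the 10 of the membrane part and stalk 0.00. Atp5b, the catalytic beta subunit, had the highest difference, with 7.46, 6.97 and 7.50 in CKO and 6.82, 6.70 and 6.93 in the controls. Its groups did not overlap, and the difference of 0.49 ± 0.20 (SE) did not pass (limma, adjusted p = 0.146). It was 0.15 on the same day and 0.66 without CKO 2, the 1 alternative of 18 in which it passed (adjusted p from 0.0479 to 0.862 over the 18, limma). The lowest gene was Atp5e, the epsilon subunit, with 5.73, 5.78 and 5.54 against 5.90, 5.91 and 6.04, a difference of -0.27 ± 0.15 (SE) without overlap (adjusted p = 0.262).

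The genes Atp5g1, Atp5g2 and Atp5g3 encode the same mature subunit c of the rotor ring with different import sequences, and all 3 had differences above 0. Atp5g1 measured 5.05 ± 0.07 (SD, n = 3) in CKO and 4.57 ± 0.23 in the controls, with single arrays at 5.13, 4.99 and 5.04 against 4.47, 4.41 and 4.83. Its groups did not overlap, and the difference of 0.48 ± 0.17 (SE) did not pass (limma, adjusted p = 0.120). It was 0.42 on the same day. Atp5g2 measured 5.69 ± 0.16 against 5.46 ± 0.10, a difference of 0.23 with overlap. Atp5g3 measured 7.09 ± 0.13 against 6.83 ± 0.10, a difference of 0.26 without overlap.

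The 3 genes without a place in a complex are Ndufaf1, an assembly factor of complex I, Cox4nb (current symbol Emc8), a part of the endoplasmic reticulum membrane complex whose gene neighbours Cox4i1, and Atp5s (current symbol Dmac2l). They differed by 0.13, 0.12 and 0.30, and 0 of these 3 passed, where 10.4% of all genes tested did. Atp5s read 1.16, 1.11 and 1.15 in CKO and 0.75, 0.94 and 0.83 in the controls, without overlap (limma, adjusted p = 0.197).

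The complexes shifted little on any single array, and the shifts of single arrays were as large as those between genotypes. Relative to each gene's control mean, the median of complex I was 0.07, -0.10 and -0.04 on CKO arrays 1 to 3 and -0.07, -0.04 and 0.11 on control arrays 1 to 3. The median of complex V was 0.26, 0.01 and 0.04 against -0.07, -0.04 and 0.09. Complex II, with 4 genes, ranged from -0.01 to 0.27 in CKO and from -0.06 to 0.07 in the controls. CKO 1 lay above 0 in all 5 complexes and control 3 did too, while CKO 2 lay below 0 in all but complex V. The plot of complex medians shows the genotypes intermingled in each of the 5 complexes.

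**Figure D4:**
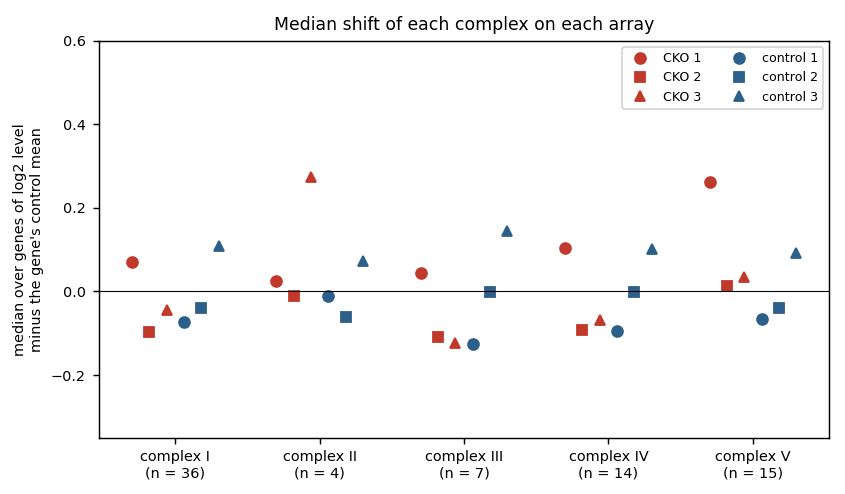
Median over the tested genes of each complex of the log2 level minus the gene's control mean, for each of the 6 arrays. Symbols are arrays 1 to 3 (circle, square, triangle), red for CKO and blue for control, and n is the number of genes. All 30 medians lie between -0.13 and 0.27.

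The controls differed among themselves in these genes. Their medians relative to the control mean were -0.08, -0.02 and 0.11 on controls 1 to 3. Of the 79 respiratory chain genes, 59 (74.7%) were lower on control 1 than the mean of the other controls, with a median difference of -0.12. Over all genes tested 41.7% were lower on control 1, with a median of 0.09. Control 1 was also the array with the lowest yolk sac signal, and the part of that tissue in these values was not tested. With each of the 6 arrays left out in turn, the median difference between genotypes ran from -0.08 to 0.05 for complex I, from 0.01 to 0.15 for complex II, from -0.15 to 0.01 for complex III, from -0.07 to 0.08 for complex IV and from 0.01 to 0.16 for complex V. The median turned above 0 without CKO 2 (complexes I and IV), without control 3 (complexes I, III and IV), and for complex IV also without CKO 3 or control 2.

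Of the genes with more than 1 probe, 21 had at least 2 tested probes, and in 17 of them all probes pointed the same way. The 4 genes with probes on both sides of 0 were Ndufa7, Ndufab1, Ndufc1 and Ndufs6. The distance between the lowest and the highest probe had a median of 0.18 and reached 0.51 in Ndufab1. Of the 105 tested probes of these genes, 1 passed, that of Cox6a2, which like Cox7a1, Cox6b2, Cox6c and most other genes of complex IV is measured by a single probe.

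Few of the other genes of oxidative metabolism passed the test. Their counts stand beside 5.26% of all genes tested called higher and 5.12% called lower. Whether any list departs from that share was not tested. Among assembly factors of the respiratory chain, 0 of 30 tested fell and 1 passed as higher, with a median difference of 0.13. This was Lyrm7, a chaperone of the Rieske protein, at least 2.07-fold higher in CKO (limma, adjusted p = 0.0348). None of its control arrays was well above background: it entered the test through the CKO arrays alone, its p rests on control values at background, and the fold is a bound against the dimmest signals above it (measured means -5.72 and -6.94). Among genes of cytochrome c and coenzyme Q synthesis, 1 of 12 rose and 0 fell. That gene was Coq8a, a kinase-like protein of coenzyme Q synthesis, at -2.63, -3.24 and -2.88 in CKO and -3.94, -3.97 and -3.90 in the controls (1.02 ± 0.19 SE, adjusted p = 0.0293). Cytochrome c itself, Cycs, differed by -0.29 and did not pass (adjusted p = 0.229).

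Of 21 genes of the citric acid cycle and pyruvate entry 0 passed (limma, 1 at an unadjusted p under 0.05), and the median was -0.08. The smallest adjusted p, 0.0772, was that of the mitochondrial isocitrate dehydrogenase Idh2, with a difference of -0.61. Of 78 mitochondrial ribosomal protein genes, 1 rose, Mrpl27 (0.90, adjusted p = 0.0307), and 0 fell, with a median of 0.08. Of 79 cytosolic ribosomal protein genes, Rpl7l1 rose (1.06, adjusted p = 0.0203) and Rpl31 fell by 0.69 (adjusted p = 0.0458, all from limma), with a median of 0.22 that was 0.01 on the same day.

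Among 18 regulators of mitochondrial biogenesis, 1 rose and 0 fell. Esrrb, a nuclear receptor also known from trophoblast stem cells, read -1.51, -2.10 and -2.09 in CKO and -4.08, -4.37 and -3.92 in the controls (2.22 ± 0.23 SE, limma, adjusted p = 0.00520), beside the trophoblast markers described above, whose part in it was not tested. The coactivator Ppargc1a read -5.83, -3.64 and -5.45 in CKO and -2.18, -2.65 and -3.07 in the controls. Its groups did not overlap, but the difference of -2.34 ± 0.58 (SE) did not pass (adjusted p = 0.0559) and was -1.004 on the same day. Nrf1 and Tfam, which drive nuclear and mitochondrial genes of the chain, differed by 0.20 and 0.17 without passing.

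Over all genes tested, 5.26% were called higher and 5.12% lower. Among 20 tested genes of muscle energy supply, 2 rose and 2 fell, with a median of 0.17. The part of the cardiomyocytes in these values was not tested either. Pgam2 and Eno3, the muscle forms of phosphoglycerate mutase and enolase, fell by 2.61 and 2.12 on the log2 scale (limma, adjusted p = 0.00512 and 0.0119). Pgam2 read -2.33, -2.86 and -2.15 in CKO and 0.55, -0.01 and -0.04 in the controls, without overlap. Fabp3, the fatty acid binding protein of heart, and Ckmt1, the ubiquitous mitochondrial creatine kinase, rose by 2.27 and 1.97 (adjusted p = 0.0366 and 0.00473). Fabp3 read 3.42, 3.05 and 2.19 in CKO against -0.26, 0.85 and 1.26. Of 17 glycolysis genes 0 rose and 1 fell, the hexokinase Hk2 (-0.76 ± 0.18 SE, adjusted p = 0.0468).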

How the data were processed

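RNA of 6 whole-embryo samples, 250 ng each, was labelled with Cy3, per the labels' protocols. Scanner files hold spot intensity values from Agilent Feature Extraction 9.5 per the submitters' processing notes (9.5.3.1 per the file headers), which the authors deposited background-subtracted and unscaled between arrays. Other deposited columns hold the raw mean and background intensity and, as other values, flags of 0 or 1. The deposited series table equalled the processed intensity at 100% of spots (relative tolerance 1e-04).

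Control spots were left out, and outlier spots too where the probe had another spot on the array. A probe whose spots were all flagged kept its value, which applied to 0 values of the respiratory chain genes. Replicate spots were averaged, log2 taken and each array's 75th percentile subtracted. Of 41174 probes, the 27854 that were well above background on every array of either genotype were tested with limma 3.58.1 in R 4.3.3 (lmFit, eBayes, two-sided, Benjamini-Hochberg over all probes, threshold 0.05). The tool is limma wherever an adjusted p is given without a name. Names follow the RefSeq table of GRCm38.p6, in which all 82 genes matched. Python 3.11.15 and matplotlib 3.10.9 were used for tables and plots. Genes, lists and tests were chosen with earlier results of these data known. Values in every sample are given for isoforms and partners, the extremes of each complex and genes that passed, and for each list the genes that passed or the smallest p; other genes were named after their values were seen.

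Alternatives were quantile and median scaling, normexp (offset 50), no filter and a stricter filter, the series table, an intensity trend with robust eBayes, slide, scan day, spike-in split and replicate number as blocks, a threshold of 0.01, the mean of probes, current symbols, and each array left out. The number of arrays limits the precision.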

Additional observations from a re-analysis of the deposited data

How the results depend on the processing

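Cox6a2 stayed lower in CKO under each of the 19 alternatives that gave it a value, from -4.99 to -2.35 (normexp), and passed in 14 of them. It did not pass with scan day or the spike-in split as a block (both -4.99), at a threshold of 0.01 (-4.04, adjusted p = 0.0129 by limma), or without CKO 1 or control 2. Several of the 14 passes add little. The series table holds the same intensities, and the mean of probes leaves the level of a gene with 1 probe as it was. Taking members by current symbol is not counted among the 14. Slide as a block cannot separate slide from genotype, since no slide held both genotypes. Leaving out 1 array gave -4.69 to -3.56, and adjusted p over all alternatives ran from 0.00149 to 0.0871. Replicate numbers are not stated to pair samples, and deviations of same-numbered arrays correlated at -0.13, 0.08 and 0.09. With replicate number as a block Cox6a2 was at -4.04 (adjusted p = 0.0463), 0 respiratory chain genes were higher and 1 lower, and 257 genes of the array were higher and 290 lower.

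Respiratory chain genes called higher numbered 0 in the main test and 1 under quantile scaling, median scaling, normexp and the intensity trend (Cox6b2 each time), and 0 to 2 with 1 array left out (2 without CKO 2, Cox6b2 and Atp5b; 1 without control 1, Cox6b2). Those called lower numbered 1 in the main test, 2 under quantile scaling and normexp (with Cox6c), 3 under the intensity trend (with Cox6c and Ndufa1), 0 with scan day or the spike-in split as a block and 0 at a threshold of 0.01, and 0 to 2 with 1 array left out (0 without CKO 1 or control 2, 2 without CKO 2, with Cox6c). Subtracting each array's median moved the median of complex I to -0.12 and of complex IV to -0.11, where the median of all probes moved from 0.08 to -0.03. With members taken by current symbol, 87 genes were tested, 0 of them higher and 1 lower. Among the subunits added, Ndufv3 differed by -0.43 (limma, adjusted p = 0.108), Uqcr10 by 0.09, Atp5md by -0.17 and Atp5mpl by -0.19.

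Over all genes, 790 were higher and 769 lower in the main test, and 610 and 912 under median scaling. Without a filter the counts were 316 and 369, 0 and 0 when scan day was a block (1777 genes at an unadjusted p under 0.05, against 4872 in the main test), with the spike-in split 34 and 82, and at a threshold of 0.01 108 and 152. With 1 array left out they ran from 117 to 1871 higher (117 without CKO 1, 120 without control 2, 141 without CKO 3, 380 without control 3, 1871 without CKO 2) and from 168 to 1097 lower (168 without control 2, 193 without CKO 1 and without CKO 3). With scan day or the spike-in split as a block only CKO 2 is compared with the 3 controls, an arm of 1 array assumed to vary like the others, and leaving out an array means fewer samples; the cause of the other moves was not tested. Signals near background limit Cox6a2, Cox4i2, Cox8b and Cox8c.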
